A study of Homo sapiens with 9 samples.

Results

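Expression of 9 epithelial genes was described in A375 melanoma cells that had been exposed to vemurafenib or cisplatin. The genes were the keratins KRT8, KRT18, KRT14 and KRT80, the claudins CLDN1 and CLDN4, the small proline-rich protein gene SPRR2D and the cadherins CDH1 and CDH3. They are 9 of the 18430 genes in the deposited table. The set was chosen by the levels of KRT14, CLDN4 and SPRR2D in vemurafenib against control, which had been seen to be lower after vemurafenib, so every value of these 9 genes in vemurafenib against control is a description with no test.

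The study asked how melanoma cells change after vemurafenib, and set cisplatin beside it. A375 is an established human melanoma line carrying the BRAF V600E mutation, and all groups share that genotype. Vemurafenib inhibits the mutant BRAF kinase, and cisplatin is a DNA crosslinking agent. The control group was kept in normal culture. The vemurafenib group received 10 µM for 3 days and the cisplatin group 2 µM for 1 day, after which both were grown on without drug and harvested on day 7. Each of the 3 groups had 3 RNA-seq libraries. The agents thus differed in dose, length of exposure and time since exposure, which cannot be told apart from the agent itself. All libraries came from a single cell line, and nothing in the labels says that replicates were separate cultures, so p-values measure only the spread between these libraries.

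Keratins are the intermediate filament proteins of epithelial cells and assemble as pairs of a type I and a type II chain. KRT8 (type II) and KRT18 (type I) form the filaments of simple epithelia, KRT14 (type I) belongs to the basal layer of the epidermis, and KRT80 (type II) is an epithelial keratin linked to cell junctions. Claudins form the strands of tight junctions, cadherins hold cells together at adherens junctions, and SPRR2D is a precursor protein of the cornified envelope that seals the outer epidermis. Melanocytes arise from the neural crest and carry CDH1 and CDH3 as contacts to keratinocytes, and melanoma cells often lose them.

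The SPRR2 genes lie side by side on chromosome 1 and have nearly the same coding sequence, which bears on how far the reads of SPRR2D can be told from those of its copies. The coding sequence of SPRR2D (GRCh38, chr1:153040131-153040346, minus strand) and that of SPRR2E (chr1:153093536-153093751, minus strand) are shown 5′ to 3′, with capitals at the 3 bases of 216 that differ.
SPRR2D: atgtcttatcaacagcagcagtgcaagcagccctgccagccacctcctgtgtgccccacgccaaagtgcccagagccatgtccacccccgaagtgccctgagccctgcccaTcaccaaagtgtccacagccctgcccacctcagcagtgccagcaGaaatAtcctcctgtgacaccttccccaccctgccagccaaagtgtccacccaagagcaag
SPRR2E: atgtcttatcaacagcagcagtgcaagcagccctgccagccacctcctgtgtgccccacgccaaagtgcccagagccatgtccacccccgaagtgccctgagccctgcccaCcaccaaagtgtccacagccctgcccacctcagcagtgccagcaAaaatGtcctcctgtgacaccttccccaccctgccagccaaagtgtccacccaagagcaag
SPRR2B also differed from SPRR2D at 3 bases, SPRR2A at 4 and SPRR2F at 5, which leaves 97.7% to 98.6% of the coding bases the same. Of the 1099 stretches of 50 bases in the SPRR2D transcripts of GENCODE 29, 212 (19.3%) were also found in another gene, and how shared reads were assigned is not known.

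The claudin pair is of interest because CLDN4 and CLDN1 stood on opposite sides of the control after vemurafenib. Their promoters are shown from 250 bases before to 50 bases after the gene start, as RefSeq gives them for GRCh38.p14. CLDN4 lies at chr7:73830746-73831045 on the plus strand and CLDN1 at chr3:190322397-190322696 on the minus strand. Capitals mark matches to TGANTCA, a pattern that includes the site bound by AP-1 transcription factors and reads the same on both strands.
CLDN4: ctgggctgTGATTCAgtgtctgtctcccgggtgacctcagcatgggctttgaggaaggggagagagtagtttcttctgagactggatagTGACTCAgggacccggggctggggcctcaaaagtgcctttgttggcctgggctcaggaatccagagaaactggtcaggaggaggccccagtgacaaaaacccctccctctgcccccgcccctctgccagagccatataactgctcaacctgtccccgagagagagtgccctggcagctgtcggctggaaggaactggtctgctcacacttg
CLDN1: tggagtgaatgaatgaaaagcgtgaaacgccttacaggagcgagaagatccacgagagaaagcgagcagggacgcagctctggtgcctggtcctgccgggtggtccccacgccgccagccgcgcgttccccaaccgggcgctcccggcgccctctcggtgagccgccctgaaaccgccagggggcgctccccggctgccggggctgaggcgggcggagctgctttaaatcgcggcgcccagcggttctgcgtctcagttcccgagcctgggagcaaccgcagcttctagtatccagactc
The CLDN4 window held 2 matches, 242 and 161 bases before the start, and the CLDN1 window held none. The pattern occurred in 2707 of the 35116 promoter windows of the table (7.71%). The E-box CAGGTG, searched on both strands, was in neither claudin window and in 7231 of all windows (20.6%). The reference table matched 3 of the 9 genes, and the third window, that of KRT8, held neither pattern. That window (chr12:52926420-52926719, minus strand) lies inside the KRT8 span given below, 52897191 to 52949860, and not at its outer start. Its lack of matches therefore says nothing of the sequence at that start. A match is a description of the sequence, and binding was not measured.

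Library totals lay between 14481020 and 16038475 estimated counts. The count filter kept 13989 genes and 8 of the 9 members, and CDH1 was too low to be tested. To pass, a gene needed about 0.646 CPM in 3 libraries (CPM are counts scaled to a common library size by TMM, which compares a gene between libraries). KRT14 and CDH3 reached that level in all 3 libraries of the control group only, SPRR2D in control and cisplatin, and CLDN1 in control and vemurafenib, so these genes could be tested because at least 1 group was high. The same holds for some of the related genes below. COL17A1, CDSN, GRHL3, KPRP and LCE1F reached it in all 3 libraries of the cisplatin group only, and DCT in those of the vemurafenib group only. GRHL1 reached it in all 3 libraries of the control group only. Vemurafenib replicate 1 stood apart from the other replicates of its group, with a chi-square of 56.6 per degree of freedom against each of them, compared with 4.63 to 14.5 for all other replicate pairs. Values of the 9 genes and counts of the gene lists are therefore also given without it.

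The libraries carried the melanocyte factor SOX10 at 779 to 1190 CPM, whereas the pigment genes MLANA and TYR had at most 6 counts in any library. The summed level of the 12 melanocyte lineage markers was 1360 to 1570 CPM in control, 2110 to 2510 after vemurafenib and 1890 to 2120 after cisplatin. Of the 9 that could be tested, 5 rose after vemurafenib (DCT, EDNRB, GPNMB, MITF and S100B). After cisplatin 5 rose and 2 fell, and without control replicate 1 or cisplatin replicate 3 the number that fell was 0. Of the 9 genes, 0.0% were lower and 55.6% higher after vemurafenib, and 22.2% and 55.6% after cisplatin. The same shares of all tested genes were 22.9% and 22.0%, and 23.5% and 22.7%. DCT, an enzyme of melanin synthesis, stood at 0.0863 ± 0.0978 CPM in control (SD, n = 3), 275 ± 103 after vemurafenib (edgeR adjusted p = 5.28e-08) and 0.683 ± 0.326 after cisplatin. DCT passed the count filter through the vemurafenib group only, so its rise there gives no support to a rise of the list. Its call after cisplatin was lost in several settings, among them without control replicate 1 (edgeR adjusted p = 0.0973) or vemurafenib replicate 1 (adjusted p = 0.102). The part of this melanocyte shift in the results was not tested.

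Epithelial markers were present in part. In the basal keratinocyte list (9 genes once KRT14 is taken out), the summed level ranged from 668 to 725 CPM in control, 429 to 774 after vemurafenib and 386 to 534 after cisplatin. That sum was carried by ITGA6, an integrin that melanoma cells also express, with group means of 519, 457 and 320 CPM, and by the cytolinker DST, with 99.8, 191 and 102. Of the 5 genes of the list that were tested, 1 rose and 2 fell after vemurafenib, and 1 rose and 3 fell after cisplatin. Among all tested genes, 22.0% rose and 22.9% fell after vemurafenib, and 22.7% rose and 23.5% fell after cisplatin. ITGB4, the hemidesmosome integrin, fell from 54.9 ± 15.3 CPM to 1.2 ± 0.712 after vemurafenib (edgeR adjusted p = 2.15e-07) and 2.9 ± 0.275 after cisplatin (adjusted p = 3.64e-07). COL17A1, a hemidesmosome collagen, stood at 0.808 ± 0.412 CPM in control and 0.268 ± 0.253 after vemurafenib, and rose to 12.9 ± 7.28 after cisplatin (adjusted p = 9.24e-05). COL17A1 passed the count filter through the cisplatin group only, so this rise gives no support to a shift of the list. KRT5, the partner of KRT14 in basal cells, had 1, 2 and 5 counts over the control, vemurafenib and cisplatin groups. TP63, the master factor of that layer, had 31, 13 and 18. In the luminal list of 10 genes the summed level was 17.9 to 26.1 CPM in control, 11.9 to 18.1 after vemurafenib and 18.1 to 25.4 after cisplatin. Its members KRT19 and CLDN3 were at 0 in control, KRT20 was at 0 after vemurafenib, and KRT19, KRT20 and CLDN3 were at 0 after cisplatin. The 8 endothelial markers summed to 18.7 to 23.8 CPM in control, 9.43 to 28.6 after vemurafenib and 53.7 to 61.2 after cisplatin, and 7 blood cell markers to 7.83 to 10.7, 4.49 to 9.06 and 33 to 53.4. The only gene called higher after cisplatin was KDR in the endothelial list (log2 change 1.70, edgeR adjusted p = 0.00104). In the blood list it was LYZ (2.36, edgeR adjusted p = 2.67e-05). CDH5, ERG and EMCN, which are endothelial markers, had 1, 2 and 1 counts over the cisplatin group. In bulk RNA, fewer cells of a kind and less RNA per cell cannot be told apart, and the part of such cells in the results was not tested.

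Cisplatin was followed by a fall of 7 of the 8 tested genes against control and by a rise of 1, KRT8 (edgeR quasi-likelihood test, Benjamini-Hochberg adjusted p under 0.05 over all tested genes). Over all 13989 genes, 23.5% were called lower and 22.7% higher in that comparison. The control libraries are the same ones that entered the contrast used to pick the genes, so this comparison is not independent of the choice. KRT14 and CDH3, which are among the 7 that fell, reached the filter level in all 3 libraries of the control group only. Their falls after cisplatin therefore give no support to a fall of the set. CLDN1 reached that level in no cisplatin library. After vemurafenib, all 3 libraries lay below all 3 control libraries for 6 of the 8 genes, above them for CLDN1, and among them for KRT80. Of all genes, 27.0% lay wholly below and 25.8% wholly above the controls. By adjusted p, 22.9% of all genes were lower and 22.0% higher after vemurafenib, but no reading is made for the members, which this contrast chose. When the drugs were compared directly, 5 members were lower after vemurafenib, KRT80 and CLDN1 were higher, and KRT14 did not pass the test. The shares of all genes were 20.8% lower and 23.0% higher. This last comparison shares its vemurafenib libraries with the choice of genes, so it is not independent of that choice. Its calls of CLDN4 and SPRR2D reuse the values by which these genes were picked.

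**Figure D1:**
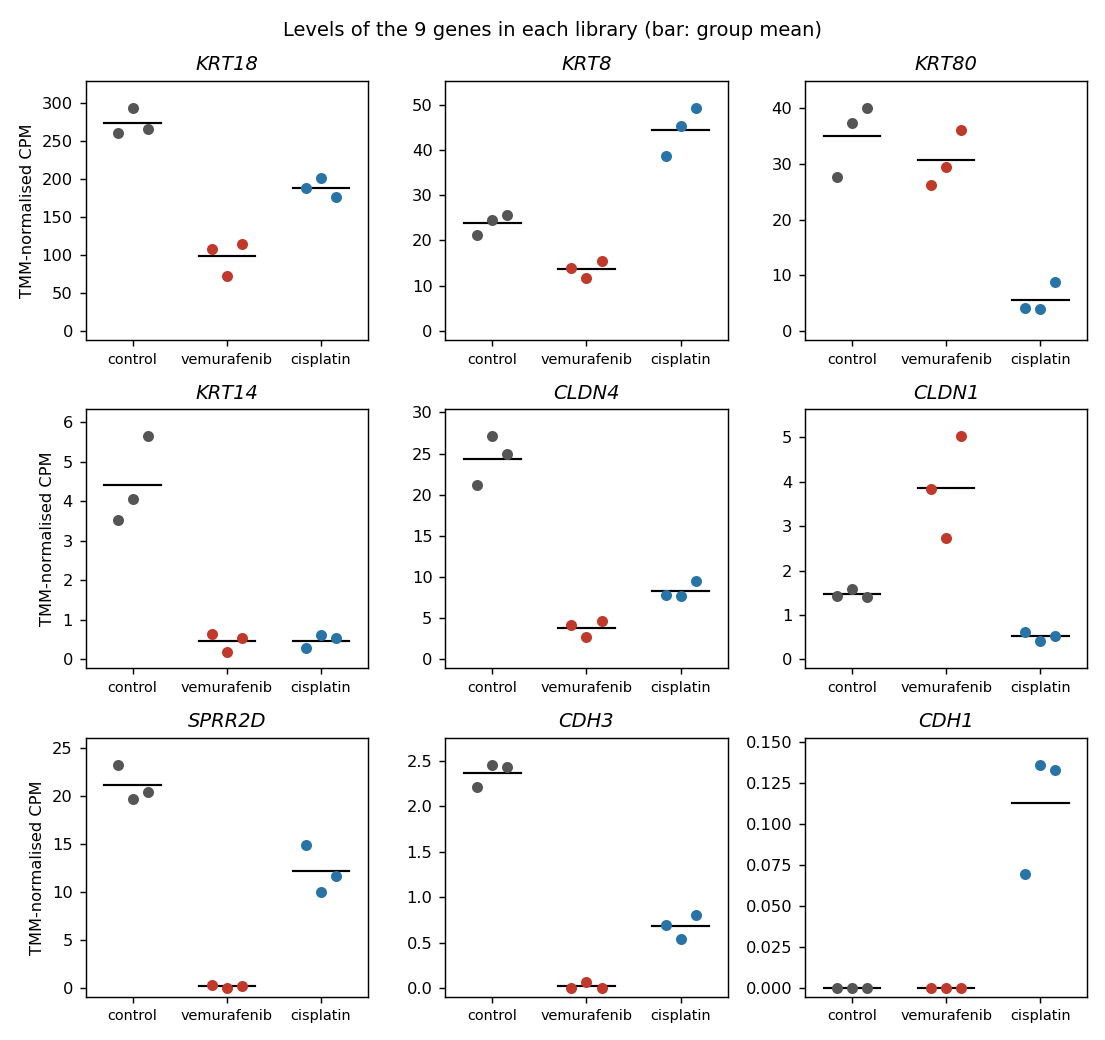
Level of each of the 9 genes in each library, in TMM-scaled CPM on the y axis (each panel has its own scale), by group on the x axis; points are libraries and bars are group means. KRT8 is highest after cisplatin, CLDN1 after vemurafenib, and SPRR2D and CDH3 are at or near 0 after vemurafenib.

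KRT18 was by far the most abundant of the 9 genes. On the authors' TPM scale, which corrects for gene length and lets genes be compared, it stood at 385 ± 24.9 TPM in control (SD, n = 3), 148 ± 33.4 after vemurafenib and 282 ± 15.6 after cisplatin. In control it was followed by SPRR2D (71.6 ± 5.82 TPM), then CLDN4 (27.0 ± 3.56) and KRT8 (26.8 ± 3.18), whose libraries overlapped. KRT80, KRT14, CDH3 and CLDN1 came next, from 17.7 TPM down to 0.84 TPM, with no overlap between neighbours, and CDH1 was last. After cisplatin KRT8 (53.1 ± 8.07 TPM) and SPRR2D (43.9 ± 7.77) overlapped behind KRT18, and KRT14, CDH3 and CLDN1 overlapped between 0.633 and 0.31 TPM. After vemurafenib KRT80 (16.7 ± 4.34 TPM) and KRT8 (16.5 ± 2.91) overlapped in second place, and SPRR2D, at 0.587 ± 0.513 TPM, overlapped with KRT14 and CDH3 near the bottom.

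KRT8 and KRT18 encode partners of one filament, yet their transcripts moved apart after cisplatin. KRT8 (Gene ID 3856, chromosome 12, 52897191 to 52949860 of GRCh38, minus strand) was at 21.3, 24.6 and 25.6 CPM in control, 13.9, 11.8 and 15.4 after vemurafenib, and 38.6, 45.2 and 49.3 after cisplatin. The 3 groups did not overlap, with vemurafenib lowest and cisplatin highest. KRT8 rose after cisplatin by 0.90 on the log2 scale (SE 0.14, edgeR adjusted p = 0.000265) and was lower after vemurafenib than after cisplatin by a log2 difference of -1.69 (SE 0.14, adjusted p = 2.32e-06). Against control the vemurafenib difference was -0.80 (SE 0.14).

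KRT18 (Gene ID 3875, chromosome 12, 52948855 to 52952906, plus strand) was at 261, 294 and 266 CPM in control, 108, 72.6 and 115 after vemurafenib, and 189, 201 and 176 after cisplatin. Here too the groups did not overlap, but both drugs lay below control. The log2 change was -0.54 after cisplatin (SE 0.15, edgeR adjusted p = 0.0126) and -1.48 after vemurafenib (SE 0.15), and the 2 drugs differed by -0.94 (SE 0.15, adjusted p = 0.000426). The cisplatin call was the least firm of the pair. It was lost without control replicate 2 (adjusted p = 0.0515) and without cisplatin replicate 3 (adjusted p = 0.0528).

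The ratio of KRT18 to KRT8, taken from TPM, was 15.4, 15.0 and 13.0 in the control libraries, 9.87, 7.71 and 9.34 after vemurafenib, and 6.13, 5.56 and 4.46 after cisplatin. The groups did not overlap, and the mean ratio was 14.5 ± 1.27 in control and 5.38 ± 0.845 after cisplatin (SD, n = 3 each, two-sided exact permutation test p = 0.1). After vemurafenib it was 8.97 ± 1.13, again without overlap with cisplatin (exact permutation p = 0.1, n = 3 each). A comparison of 3 against 3 cannot give a smaller p. The genes overlap by 1006 bases and no source says that strand was kept. Of the 50-base stretches of KRT18, 720 of 2008 (35.9%) occurred in another gene, 326 of them in KRT8 and 481 in 43 KRT18 pseudogenes, and for KRT8 the share was 16.2%, so reads of the pair could be split in counting.

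**Figure D2:**
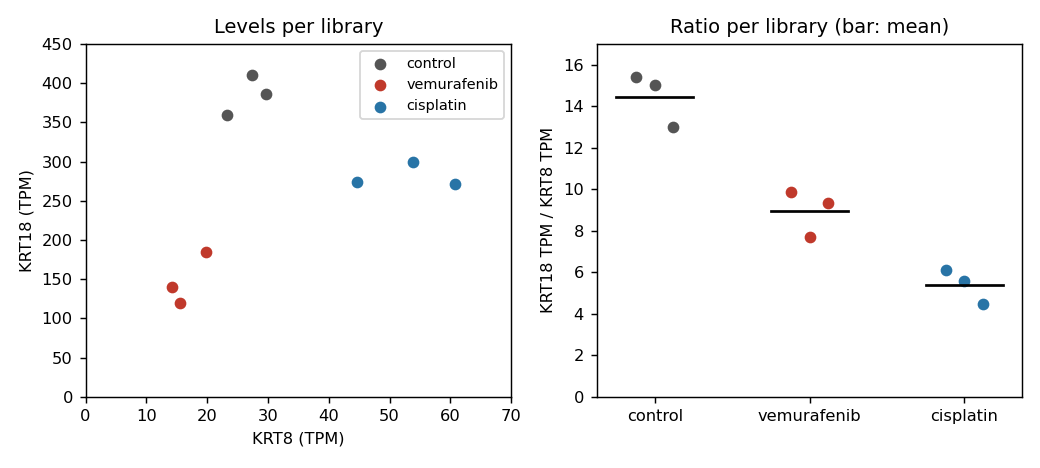
Left, KRT18 against KRT8 in each library, both in TPM; right, the ratio of the 2 by group, with points for libraries and bars for means. Cisplatin libraries have the highest KRT8 and the lowest ratio, 4.46 to 6.13, against 13.0 to 15.4 in control.

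Among the 4 keratins of the set, KRT80 had the largest difference between the drugs. The gene (Gene ID 144501, chromosome 12, 52168996 to 52192014, minus strand) was at 27.7, 37.4 and 40.1 CPM in control, 26.3, 29.4 and 36.2 after vemurafenib, and 4.15, 3.87 and 8.72 after cisplatin. Control and vemurafenib libraries overlapped, and all cisplatin libraries lay far below both. KRT80 fell after cisplatin by 2.65 on the log2 scale (SE 0.28, edgeR adjusted p = 1.59e-05), and the vemurafenib group exceeded the cisplatin group by 2.45 (SE 0.28, adjusted p = 2.58e-05). The vemurafenib difference from control was -0.19 (SE 0.24).

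KRT14 was low after either drug. The gene (Gene ID 3861, chromosome 17, 41582279 to 41586895, minus strand) was at 3.52, 4.05 and 5.65 CPM in control, 0.65, 0.187 and 0.551 after vemurafenib, and 0.277, 0.611 and 0.533 after cisplatin. Both drug groups lay wholly under control and overlapped each other, with 3 to 10 counts per library. After cisplatin KRT14 fell by 3.19 on the log2 scale (SE 0.39, edgeR adjusted p = 4.76e-05), and after vemurafenib the difference was -3.23 (SE 0.38). KRT14 passed the count filter through the control group only, so its fall after cisplatin gives no support of its own. Between the drugs the difference was -0.04 (SE 0.51, adjusted p = 0.955), an interval too wide to show that they act alike. Its sign turned to 0.32 without vemurafenib replicate 2, to 0.18 without cisplatin replicate 2 and to 0.05 without cisplatin replicate 3. Of the 50-base stretches of KRT14, 23.8% occurred in another gene, most often KRT16 (180 of them).

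The claudins behaved differently from each other. CLDN4 (Gene ID 1364, chromosome 7, 73830996 to 73832690, plus strand), a claudin of tight epithelia, was at 21.2, 27.1 and 24.9 CPM in control, 4.16, 2.74 and 4.65 after vemurafenib, and 7.82, 7.74 and 9.52 after cisplatin. The groups were ordered control, cisplatin, vemurafenib with no overlap. CLDN4 fell after cisplatin by 1.54 on the log2 scale (SE 0.18, edgeR adjusted p = 4.22e-05) and was lower again after vemurafenib, by -1.12 against cisplatin (SE 0.20, adjusted p = 0.000893) and by -2.66 against control (SE 0.20). CLDN4 was picked for its low vemurafenib values, so its p between the drugs is no independent evidence. Its TGANTCA-bearing promoter is printed above.

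CLDN1 (Gene ID 9076, chromosome 3, 190305707 to 190322446, minus strand), a claudin needed for the barrier of the skin, was at 1.43, 1.59 and 1.41 CPM in control, 3.84, 2.74 and 5.02 after vemurafenib, and 0.623, 0.407 and 0.533 after cisplatin. It was the one member of the set with vemurafenib above and cisplatin below control in all libraries. The log2 change was -1.49 after cisplatin (SE 0.35, edgeR adjusted p = 0.00422) and 1.38 after vemurafenib (SE 0.27), so that the drugs differed by 2.87 (SE 0.32, adjusted p = 2.13e-05). CLDN1 was scarce, with 6 to 9 counts per cisplatin library.

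SPRR2D was nearly lost from the vemurafenib libraries and kept after cisplatin. The gene (Gene ID 6703, chromosome 1, 153039732 to 153041120, minus strand) was at 23.3, 19.7 and 20.5 CPM in control, 0.26, 0 and 0.245 after vemurafenib, and 14.9, 10.0 and 11.7 after cisplatin. The vemurafenib values stand for 4, 0 and 4 counts, against at least 297 in a control library and 148 in a cisplatin library. SPRR2D was lower after vemurafenib than after cisplatin by -6.12 on the log2 scale (SE 0.38, edgeR adjusted p = 2.43e-07) and than control by -6.91 (SE 0.37). SPRR2D was picked for its low vemurafenib values, which the comparison with cisplatin reuses, so this p is no independent evidence. The fall after cisplatin was small, -0.79 (SE 0.21, adjusted p = 0.00972), and was not called without cisplatin replicate 2 (adjusted p = 0.0551) or by limma on log2(TPM + 0.1) (adjusted p = 0.428). SPRR2E, the near-identical copy shown above, had 9 counts over the control group, 0 over the vemurafenib group and 6 over the cisplatin group, and SPRR2A had 0, 0 and 1.

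CDH3, or P-cadherin, followed the order of SPRR2D at a lower level. The gene (Gene ID 1001, chromosome 16, 68645310 to 68733771, plus strand) was at 2.22, 2.46 and 2.44 CPM in control, 0, 0.0623 and 0 after vemurafenib, and 0.692, 0.543 and 0.799 after cisplatin. A single read was counted in the whole vemurafenib group, and the groups did not overlap. CDH3 fell after cisplatin by 1.79 on the log2 scale (SE 0.31, edgeR adjusted p = 0.000642). The gene passed the count filter through the control group only, so this fall gives no support of its own. CDH3 was lower after vemurafenib than after cisplatin (adjusted p = 0.000207). There, counts of 30 against 1, scaled for library size, gave a ratio of 32.4 (95% exact interval 5.39 to 1320, counting error only). Against control the counts were 109 to 1, a ratio of 113 (19.9 to 4510). Of its 50-base stretches 12.1% occurred in another gene.

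CDH1, or E-cadherin, begins 3.52 kb downstream of CDH3 on the same strand (Gene ID 999, chromosome 16, 68737292 to 68835537). No CDH1 read was counted in the control or vemurafenib libraries, which allows up to 0.0652 and 0.0628 CPM over those groups (a limit of 3 counts). The cisplatin libraries had 1, 2 and 2 counts. These data therefore give no change of CDH1 that could be tested.

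**Figure D3:**
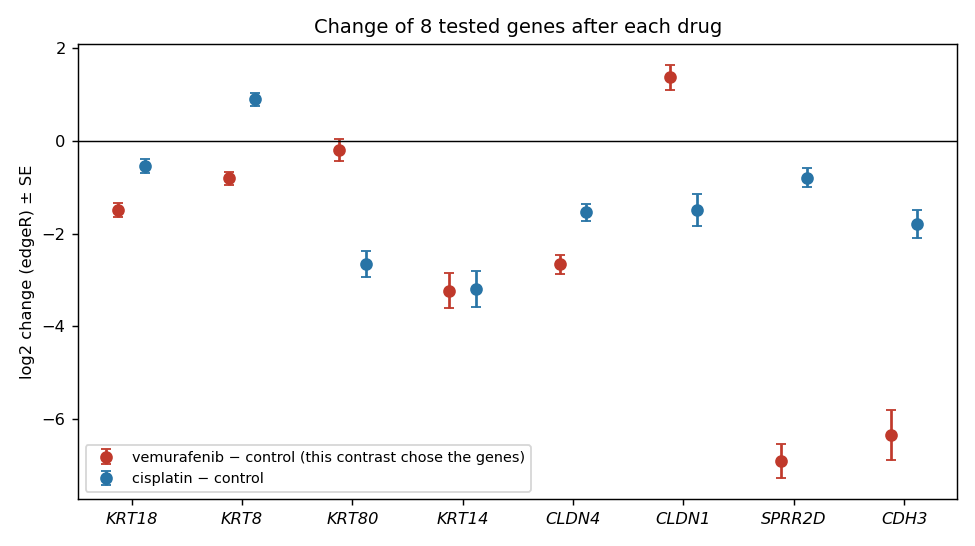
Change of the 8 tested genes against control on the log2 scale (y axis), after vemurafenib and after cisplatin; points are edgeR estimates and bars are 1 standard error. KRT8 and CLDN1 lie on opposite sides of 0 after the 2 drugs, KRT80 is near 0 after vemurafenib only, and the CDH3 point after vemurafenib rests on 1 count.

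Leaving out vemurafenib replicate 1 changed no call of a member. The log2 difference between vemurafenib and cisplatin was then -1.70 for KRT8, -1.01 for KRT18, -0.35 for KRT14, 2.55 for KRT80, 2.88 for CLDN1, -1.17 for CLDN4, -6.53 for SPRR2D and -4.14 for CDH3. Against control it was -0.80 for KRT8, -1.54 for KRT18, -3.54 for KRT14, -0.09 for KRT80, 1.39 for CLDN1, -2.72 for CLDN4, -7.33 for SPRR2D and -5.93 for CDH3. The last value depends on how a fit treats counts of 0 and 1 and is no bound.

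The other keratins stood mostly lower after vemurafenib. Of 35 listed keratins outside the 9, 8 could be tested, and after vemurafenib 6 fell and 0 rose against control (edgeR, and 0 by DESeq2, by limma on log2(TPM + 1) and at an unadjusted p under 0.05). Among all tested genes, 22.9% fell and 22.0% rose in that comparison. The median log2 change of the keratins was -1.51, compared with 0.01 over all genes. After cisplatin 4 of the 8 rose and 2 fell, with a median of 0.58 against 0.00 for all genes. There, 22.7% of all tested genes rose and 23.5% fell, and the 2 of 8 that fell are close to the latter share. KRT15, a basal epidermal keratin, went from 17.8 ± 2.0 CPM in control to 0.836 ± 0.184 after vemurafenib (log2 change -4.40, SE 0.25, adjusted p = 2.15e-07) and 8.89 ± 2.28 after cisplatin (adjusted p = 0.00123). KRT79 was at 0.825 ± 0.175 CPM in control, fell to 0.103 ± 0.127 after vemurafenib (adjusted p = 0.00268) and rose to 3.02 ± 0.618 after cisplatin (adjusted p = 0.00162). KRT81, a hair keratin, fell after cisplatin from 3.90 ± 1.99 to 0.0688 ± 0.0692 CPM (adjusted p = 4.27e-05). It also fell after vemurafenib (log2 change -2.66, adjusted p = 0.000649). Between the drugs 6 keratins were lower after vemurafenib and 1, KRT81, was higher, beside 20.8% and 23.0% of all tested genes. KRT81 was not called there without vemurafenib replicate 1, without cisplatin replicate 3 or by limma.

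Desmosomes anchor keratin filaments at cell contacts. Of 9 tested desmosome genes 6 fell and 1 rose after vemurafenib (median -0.93), and 2 fell and 1 rose after cisplatin (median -0.04). As shares, 66.7% fell and 11.1% rose with vemurafenib, against 22.9% and 22.0% of all tested genes. With cisplatin 22.2% fell and 11.1% rose, against 23.5% and 22.7%. Without vemurafenib replicate 1, which shares in the estimate of spread, 4 fell and 2 rose after cisplatin, and without vemurafenib replicate 3 the number that rose was also 2. DSP, the plakin that ties keratins to the desmosome, went from 67.6 ± 4.21 CPM to 8.14 ± 3.17 after vemurafenib (log2 change -3.05, SE 0.22, adjusted p = 1.04e-06) and was at 69.6 ± 2.45 after cisplatin. JUP, or plakoglobin, fell after both drugs, from 26.6 ± 2.86 CPM to 6.80 ± 0.811 after vemurafenib (adjusted p = 2.22e-06) and 15.9 ± 2.42 after cisplatin (adjusted p = 0.00172). DSC3, a desmosomal cadherin, rose after both, from 16.3 ± 1.15 CPM to 24.8 ± 3.87 (adjusted p = 0.01) and 32.1 ± 6.29 (adjusted p = 0.000476). Between the drugs 5 of the 9 genes were lower and 0 higher after vemurafenib, and the count of higher genes was also 0 by DESeq2, by limma and at an unadjusted p under 0.05.

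Cornified envelope genes other than SPRR2D moved in no single direction after vemurafenib. Of 10 tested, 3 fell and 2 rose (median 0.27), and after cisplatin 3 rose and 0 fell (median 0.88). The number that fell after cisplatin was also 0 at an unadjusted p under 0.05, by DESeq2 and by limma. Among all tested genes, 22.9% fell and 22.0% rose after vemurafenib, and 22.7% rose and 23.5% fell after cisplatin. Both counts after vemurafenib, and the 3 of 10 that rose after cisplatin, lie near these shares. CDSN, 1 of the 3 that rose, and LCE1F passed the count filter through the cisplatin group only. Neither therefore supports a rise of the list after cisplatin or a difference between the drugs. The number that rose after vemurafenib was 1 without control replicate 2 or vemurafenib replicate 3, and by limma 5 rose after cisplatin. LCE1E, a late cornified envelope gene, had 1.63 ± 0.765 CPM in control, fell to 0.105 ± 0.0371 after vemurafenib (log2 change -3.86, SE 0.53, adjusted p = 0.00012) and rose to 6.03 ± 1.04 after cisplatin (adjusted p = 0.000375). LCE1F had 22 counts over control, 0 over vemurafenib and 39 over cisplatin. Set against a limit of 3 counts over the vemurafenib group, it was 7.62-fold higher in control and 14.0-fold higher after cisplatin. These folds leave out the counting error of the 22 and 39 counts and are no strict lower bounds. HRNR, a filaggrin-like protein gene, rose after vemurafenib from 2.94 ± 0.901 to 5.64 ± 0.46 CPM (adjusted p = 0.00648). Between the drugs 4 genes were lower after vemurafenib and 0 higher by edgeR, beside 20.8% and 23.0% of all tested genes. The number higher was also 0 by DESeq2 and limma. It was 1 at an unadjusted p under 0.05, and 1 without control replicate 1, control replicate 3 or vemurafenib replicate 1.

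Tight junction genes outside the claudin pair were little shifted as a group. Of 16 tested, 2 rose and 3 fell after vemurafenib (median 0.06), and 3 rose and 3 fell after cisplatin (median 0.21). Put as shares, 12.5% rose and 18.8% fell with vemurafenib, where all tested genes gave 22.0% and 22.9%. For cisplatin both shares were 18.8%, where all genes gave 22.7% higher and 23.5% lower. The number that rose was 5 after vemurafenib and 6 after cisplatin without vemurafenib replicate 1, and 1 after vemurafenib without control replicate 2. JAM2, a junctional adhesion molecule, fell from 4.21 ± 1.64 CPM to 0.815 ± 0.0866 after vemurafenib (adjusted p = 0.000267) and 0.365 ± 0.227 after cisplatin (adjusted p = 4.12e-05). CGN, or cingulin, fell after cisplatin from 1.24 ± 0.17 to 0.248 ± 0.102 CPM (adjusted p = 0.00106), and at 1.29 ± 0.418 CPM after vemurafenib it was higher there than after cisplatin (adjusted p = 0.000905). F11R, which encodes JAM-A, rose after cisplatin from 31.5 ± 4.0 to 61.7 ± 8.0 CPM (adjusted p = 0.000156). Between the drugs 3 genes were higher and 5 lower after vemurafenib, or 3 lower without cisplatin replicate 2.

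More of the other cadherins and adherens junction genes rose than fell. In the list of adherens junction genes and cadherins, 10 of 18 tested genes rose and 2 fell after vemurafenib (median 0.44). After cisplatin 7 rose and 5 fell (median 0.12). The vemurafenib counts are 55.6% higher and 11.1% lower, beside 22.0% and 22.9% of all tested genes. Those of cisplatin are 38.9% and 27.8%, beside 22.7% and 23.5%. By limma on log2(TPM + 1), 8 rose and 0 fell after vemurafenib, where DESeq2 also gave 2 lower and an unadjusted p under 0.05 gave 2, and 6 rose and 2 fell after cisplatin. The number that fell after cisplatin was also 2 when cisplatin replicate 1, control replicate 2 or control replicate 3 was left out, and 3 when cisplatin replicate 2 was. CDH2, or N-cadherin, rose from 146 ± 12.9 to 278 ± 52.9 CPM after vemurafenib (adjusted p = 0.000195) and stood at 111 ± 4.35 after cisplatin. CDH19, a neural crest cadherin, stood at 77.1 ± 2.54 CPM in control, 352 ± 108 after vemurafenib and 307 ± 12.5 after cisplatin, with log2 changes of 2.19 (SE 0.19, adjusted p = 3.57e-06) and 1.99 (SE 0.19, adjusted p = 7.05e-06). CDH6 rose after both drugs, from 0.216 ± 0.146 CPM to 3.94 ± 1.33 after vemurafenib (adjusted p = 1.88e-05) and 0.884 ± 0.215 after cisplatin (adjusted p = 0.00982). CDH10 also rose after both, from 0.48 ± 0.108 to 3.47 ± 0.463 CPM (adjusted p = 7.17e-06) and 11.3 ± 1.66 CPM (adjusted p = 8.77e-08). Between the drugs 7 genes were higher and 3 lower after vemurafenib.

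Across these 5 lists, 61 of 166 listed genes were tested. After vemurafenib 15 rose and 20 fell, after cisplatin 18 rose and 12 fell, and between the drugs 11 were higher and 23 lower after vemurafenib. Of all tested genes, 22.0% rose and 22.9% fell after vemurafenib, 22.7% and 23.5% after cisplatin, and 23.0% were higher and 20.8% lower between the drugs. The same shares of the 61 genes were 24.6% and 32.8%, 29.5% and 19.7%, and 18% and 37.7%. Medians over the 61 genes were 0.05, 0.25 and -0.10, against 0.01, 0.00 and 0.03 over all genes. Without vemurafenib replicate 1 the same 61 genes gave 21 higher and 20 lower after vemurafenib and 26 higher and 15 lower after cisplatin. Set against cisplatin, vemurafenib then had 14 higher and 23 lower. The filter then kept 70 of the listed genes, and the number called after cisplatin was 46, compared with 30.

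**Figure D4:**
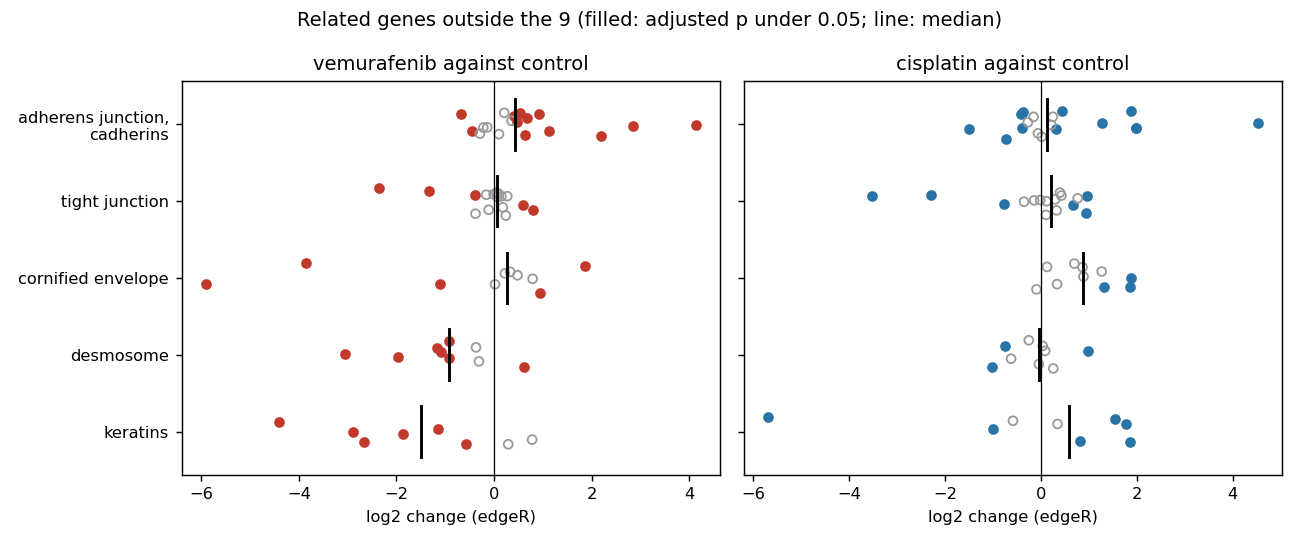
Log2 change against control (x axis) of the tested genes of the 5 related lists (y axis), after vemurafenib on the left and cisplatin on the right; each point is a gene, filled where the adjusted p was under 0.05, and the black line is the list median. Keratin and desmosome medians lie at -1.51 and -0.93 after vemurafenib and at 0.58 and -0.04 after cisplatin.

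SPRR2D lies in the epidermal differentiation complex, a cluster of genes for envelope and S100 proteins, and few of its neighbours were measurable. Within 0.5 Mb of it, 5 other genes were tested, and they are named here after their values were seen: KPRP, LCE1F, LCE1E, S100A6 and S100A5. All 5 were lower after vemurafenib than after cisplatin. KPRP and LCE1F reached the filter level of about 0.646 CPM in all 3 libraries of the cisplatin group only. They could be tested because that group was high, so their calls in comparisons with cisplatin give no support to a shift of the region. Against control 3 fell after vemurafenib (LCE1F, LCE1E and S100A6) and 3 rose after cisplatin (KPRP, LCE1E and S100A5). S100A6 was the abundant one, with 1060 ± 86.1 CPM in control, 423 ± 96.5 after vemurafenib and 1170 ± 135 after cisplatin. KPRP had 0.282 ± 0.229, 0.0408 ± 0.0707 and 1.55 ± 0.664 CPM in the same order. Within 1 Mb, 28 other genes were tested, of which 3 rose and 11 fell after vemurafenib, 10 rose and 5 fell after cisplatin, and 2 were higher and 12 lower after vemurafenib than after cisplatin. The shares of all tested genes were 22.0% and 22.9%, 22.7% and 23.5%, and 23.0% and 20.8% in that order. Without vemurafenib replicate 1 these counts were 4 and 16, 10 and 8, and 3 and 14, and within 0.5 Mb they were as given above. The number that fell after cisplatin was 3 by limma and without control replicate 3 or cisplatin replicate 3, and 1 gene was higher between the drugs without cisplatin replicate 2 or 3.

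**Figure D5:**
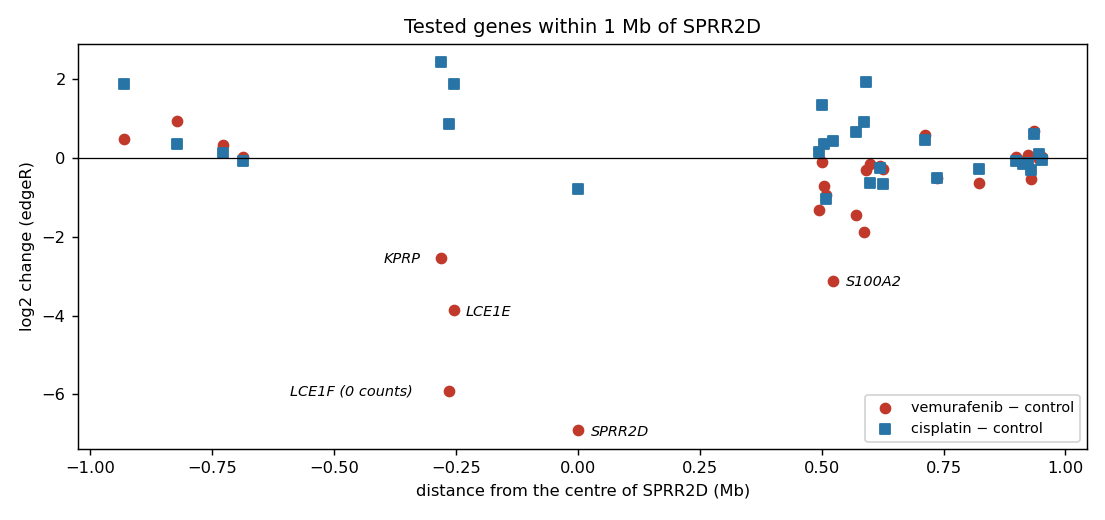
Log2 change against control (y axis) of the tested genes within 1 Mb of SPRR2D, by distance from its centre in Mb (x axis); circles are vemurafenib and squares cisplatin. SPRR2D is at -6.91 after vemurafenib, and the value of LCE1F, which had 0 counts there, is a fitted estimate and no bound.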

How the data were processed

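RNA-seq of 9 A375 libraries was used, 3 per group by the treatment labels. The submitters' processing notes name HISAT2 2.0.4 as aligner and hg38 as build, with counting tool and annotation not given in the sources used here. Estimated counts, TPM and FPKM per gene, so named per the file headers, were deposited. The estimated counts, not whole in 13.6% to 14.1% of a library's values, were rounded. The authors' TPM served levels between genes and 2 alternatives, and the deposited FPKM were not tested. Gene IDs were matched to RefSeq (18153 of 18430), and 26 symbols turned into dates were restored.

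Genes were filtered with filterByExpr, scaled by TMM and fitted as group means over all 9 libraries with edgeR 4.0.16 in R 4.3.3 (6 residual degrees of freedom, biological coefficient of variation 0.139), two-sided, with Benjamini-Hochberg adjustment at 0.05. Alternatives used DESeq2 1.42.0, limma 3.58.1, other scalings and filters, a replicate block and each library left out. The same steps were tested on simulated data.

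The members and lists were chosen with earlier results of these data known. Named besides the members are, per list and comparison, up to 2 called genes of the largest change in each direction with a mean of at least 10 counts in the higher group, a fixed panel of regulators and partners (CDH2, KRT5, KRT19, TP63, ZEB1, ZEB2 and SNAI2 among it), and, for 4 members, the 3 genes of the most similar profile. Some of the genes so chosen are not reported here. Same-numbered replicates deviated together between vemurafenib and control (r = 0.18, 0.14 and 0.18), which was taken as pairing. For cisplatin and control r was 0.21, 0.08 and 0.13, and for the 2 drugs 0.17, 0.01 and 0.10, which was not. The values of the 2 drugs against control lie close to each other, and the labels do not say what a replicate number marks. The main fit left pairing out, and the replicate block took it in. Libraries were amplified by PCR and no label names molecular identifiers, so intervals and limits cover counting error only.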

Additional observations from a re-analysis of the deposited data

How the results depend on the processing

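Counts of the 9 genes, of all genes and of the 5 related lists together were recomputed under every alternative and stayed within 1.5 times their values, except that the junction, keratin, envelope and desmosome genes called after cisplatin numbered 46 without vemurafenib replicate 1, compared with 30. The filter then kept 70 listed genes in place of 61, and over the 61 the count was 41. Leaving out each library in turn gave 27 to 46 such genes after cisplatin, 31 to 43 after vemurafenib and 28 to 42 between the drugs. The members called lower after cisplatin numbered 6 to 7, and those lying below control after vemurafenib 6 to 7. The difference of KRT14 between the drugs, which never passed the test, ran from -0.35 to 0.32 and turned to 0.32 without vemurafenib replicate 2, 0.18 without cisplatin replicate 2 and 0.05 without cisplatin replicate 3. The cause was not tested. On log2(TPM + 1), whose pseudocount shrinks low genes, the difference of vemurafenib from control was -2.02 for KRT14, 0.84 for CLDN1 and -1.15 for CDH3. Scaling by total counts moved the share of higher genes among those called after vemurafenib from 49.1% to 60.0% and the median of all genes to 0.11, and log2(TPM + 1) gave 59.3%. With total counts the tight junction list had 3 genes higher and 2 lower after vemurafenib in place of 2 and 3, and the desmosome median after cisplatin was 0.02. Counts of single lists, which are small, moved by more, and the libraries that moved them are given beside them. With total counts the adherens junction genes lower after cisplatin numbered 3 in place of 5. With only the groups compared in the fit, the tight junction genes higher after cisplatin numbered 7 in place of 3, and the desmosome genes 4 lower and 2 higher in place of 2 and 1. Under the replicate block 7 members were lower and 1 higher after cisplatin, and 5 lower and 2 higher between the drugs, so the pairing changed no member's call. Under the block the 5 lists had 36 genes called after vemurafenib, 34 after cisplatin and 36 between the drugs, in place of 35, 30 and 34. Depth limited CDH1, CDH3 and the vemurafenib values of SPRR2D, which rest on 8 counts.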

Other observations

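Regulators of epithelial genes changed in both directions. Of 13 tested epithelial transcription and splicing regulators, 2 rose and 7 fell after vemurafenib, with a median log2 change of -1.03 against 0.01 over all genes. After cisplatin 3 rose and 5 fell (median -0.08). Of the 13 genes, 53.8% were lower and 15.4% higher after vemurafenib, and 38.5% and 23.1% after cisplatin. The same shares of all tested genes were 22.9% and 22.0%, and 23.5% and 22.7%. The number that rose after vemurafenib was 1 without control replicate 2 or control replicate 3, and without vemurafenib replicate 1 it was 2, with 8 lower. KLF5, an epithelial zinc finger factor, fell after vemurafenib from 178 ± 15.5 to 39.3 ± 9.19 CPM (SD, n = 3, edgeR adjusted p = 3.16e-06). It also fell after cisplatin (log2 change -0.82, adjusted p = 0.00268). EHF, an epithelial ETS factor, fell after vemurafenib from 5.55 ± 1.93 to 0.96 ± 0.286 CPM (adjusted p = 5.46e-05) and rose to 12.2 ± 1.57 CPM after cisplatin (adjusted p = 0.00263). ELF3, of the same family, fell after cisplatin from 3.13 ± 1.39 to 0.134 ± 0.114 CPM (adjusted p = 5.05e-05) and was at 0.88 ± 0.165 after vemurafenib. TFAP2A, a factor shared by neural crest and epidermis, rose after vemurafenib from 13.6 ± 1.65 to 48.4 ± 0.452 CPM (adjusted p = 6.03e-07). TFAP2C fell after both drugs, from 106 ± 2.62 to 22.6 ± 2.58 CPM after cisplatin (adjusted p = 3.26e-07) and by a log2 change of -1.1 after vemurafenib (adjusted p = 6.53e-05). GRHL3, a factor of skin barrier genes, rose after cisplatin from 0.303 ± 0.194 to 1.99 ± 0.351 CPM (adjusted p = 0.00031). GRHL3 passed the count filter through the cisplatin group only. GRHL1, counted among the genes that fell after both drugs, did so through the control group only. Neither therefore adds support to the counts of the list.

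Among 16 tested mesenchymal regulators and markers, 5 rose and 9 fell after vemurafenib (median -0.65), and 3 rose and 9 fell after cisplatin (median -0.61). Of the 16 genes, 56.2% were lower and 31.2% higher after vemurafenib, and 56.2% and 18.8% after cisplatin. The same shares of all tested genes were 22.9% and 22.0%, and 23.5% and 22.7%. The repressors ZEB1 and ZEB2 stood on opposite sides of control after vemurafenib. ZEB2 rose from 30.3 ± 2.71 to 209 ± 60.5 CPM (adjusted p = 5.62e-07), and ZEB1 fell from 66.6 ± 6.41 to 28.0 ± 12.5 CPM (adjusted p = 0.00208). After cisplatin they were at 26.4 ± 2.54 and 55.7 ± 3.69 CPM. SNAI2 rose after both drugs, from 5.48 ± 1.36 CPM to 14.9 ± 2.61 (adjusted p = 0.000177) and 9.48 ± 1.63 (adjusted p = 0.00982). Of 10 tested AP-1 subunits, 1 rose and 5 fell after vemurafenib (median -0.65), and 0 rose and 4 fell after cisplatin (median -0.38), where no subunit rose at an unadjusted p under 0.05, by DESeq2 or by limma either and 1 was called higher without cisplatin replicate 1. Without vemurafenib replicate 1 the mesenchymal list had 5 higher and 9 lower after vemurafenib, and the AP-1 list 1 higher and 6 lower. FOSL1 was at 199 ± 20.8 CPM in control, 123 ± 28.3 after vemurafenib and 78.9 ± 1.03 after cisplatin (adjusted p = 3.58e-05 for the last). JUN rose after vemurafenib from 54.2 ± 14.3 to 165 ± 60.4 CPM (adjusted p = 0.00338).

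The genes whose log2 CPM followed a member most closely over the 9 libraries were found among 13366 genes. The libraries form 3 groups, so such a likeness mainly describes the order of the group means. For CLDN4 they were STK10 (Pearson r = 0.997), GLRX (0.993) and ETV4 (0.992), and ETV4, an ETS factor known as a target of the MAPK pathway, had 330 ± 7.98 CPM in control, 54.5 ± 13.6 after vemurafenib and 122 ± 5.26 after cisplatin. For SPRR2D they were TRNP1 (r = 0.997), CTHRC1 (0.996) and BCL11B (0.994). For KRT14 they were ARID3A (r = 0.982), PKM (0.981) and S100A3 (0.979), and for CLDN1 they included COL15A1 (r = 0.989) and CAV1 (0.98). CAV1, which encodes caveolin, had 64.5 ± 11.1 CPM in control, 124 ± 14.9 after vemurafenib and 30.5 ± 1.83 after cisplatin, the same order as CLDN1.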
